A study of Mus musculus with 38 samples.

Results

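The genes described here encode the proteins of the mitochondrial ribosome, and their RNA was measured in mouse left ventricle. They were taken by symbol (Mrpl or Mrps followed by a digit) and had to reach 10 counts in at least 8 of the 38 libraries. Of 29564 genes in the deposited tables, 81 symbols matched and 78 met the rule. By their symbols, 49 belong to the large subunit and 29 to the small subunit, and all 78 were among the 13765 genes tested. The 49 include Mrpl23-ps1, which is annotated as a processed pseudogene. The 3 symbols that missed the rule, Mrpl48-ps, Mrps36-ps1 and Mrps36-ps2, are pseudogenes that reached 10 counts in 0 libraries.

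The mitochondrial ribosome sits in the matrix and translates the few proteins encoded by mitochondrial DNA, all of them membrane subunits of the oxidative phosphorylation complexes. Its RNAs come from mitochondrial DNA, whereas its proteins are encoded in the nucleus, made in the cytosol and imported. The large subunit forms peptide bonds and holds the exit tunnel, and the small subunit binds the messenger RNA and reads its codons. Cardiac muscle is dense in mitochondria and takes most of its ATP from oxidative phosphorylation. Subunit names follow the gene symbols here, with 3 known exceptions: the products of Mrps30 and Mrps18a have been placed in the large subunit in structures, and the product of Mrps36 is now regarded as a component of the alpha-ketoglutarate dehydrogenase complex and carries the name Kgd4.

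Of the 4 groups, the non_failing mice (n = 8) served as healthy controls given vehicle. The other mice were fed a high-fat diet and given L-NAME, an inhibitor of nitric oxide synthesis, a combination used to model heart failure with preserved ejection fraction (HFpEF). They received vehicle (HFpEF+Veh, n = 8), TYA-018, an inhibitor of the cytoplasmic deacetylase HDAC6 (HFpEF+TYA-018, n = 11), or empagliflozin, an inhibitor of the renal glucose transporter SGLT2 (HFpEF+SGLT2i, n = 11). Each library came from 1 wild-type mouse, labelled C57BL6 and given as C57BL/6J in the methods of the study. The labels call the mice female, whereas the methods of the study describe males, and the labels give no age and no batch. No group combined a drug with the control diet, so a drug effect in healthy mice was not measured.

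Total counts per library, in units of 1000000, were 21.5 to 59.3, and transcripts of mitochondrial DNA held 28.5% to 39.5% of them. The mitochondrial ribosomal protein genes together held 0.254% to 0.382% of the counts, or 57402 to 204909 counts. A few libraries stood apart. HFpEF+Veh V2523 had a summed level of hepatocyte markers of 2551.1 CPM (counts per 1000000 of a library's total), against a median of 38.4 CPM over its group, and comparisons with vehicle are given with and without it. In non_failing this sum was 58.8 to 558 CPM, with a median of 122 CPM. HFpEF+SGLT2i V2571 and V2572 had the lowest summed levels of 10 cardiomyocyte markers, 36537 and 40063 CPM, and also the lowest mean of the mitochondrial ribosomal protein genes of all 38 libraries. The lowest non_failing library in that mean was V2510, at rank 36 of 38. HFpEF+Veh V2532 held the highest level in its group of each listed skeletal muscle marker except Ckm. Among these was Myh4, at 69.3 CPM there and at 0 in 7 of the 8 HFpEF+Veh libraries. The defining cardiomyocyte marker Myh6 was present in every library.

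An entry among the RefSeq promoters of GRCm38.p6 was found for 68 of the 78 genes, and Mrpl13, Mrpl15, Mrpl19, Mrpl23-ps1, Mrpl38, Mrpl4, Mrpl54, Mrps28, Mrps34 and Mrps35 had none. Of the 12 genes with an entry that passed the test in at least 1 comparison below, 5 held a match to a motif named here. These 5 are printed to show where the match lies, and Mrps15, which held none, is printed because it passed in both HFpEF+Veh against non_failing and HFpEF+TYA-018 against HFpEF+Veh. The other 6, Mrpl55, Mrps36, Mrpl30, Mrpl2, Mrpl12 and Mrpl28, held no match either, so the printed set is richer in matches than the genes that passed. Each sequence runs 5′ to 3′ on the strand of the gene, from 250 bases before the start of the transcript to 50 after it. Capitals mark matches, on either strand, to CCGGAAG, a core bound by ETS factors such as GABP, and to GCCATNTT, a core bound by YY1. A further search, for GCGCATGCG, a core bound by NRF1, found no match in these 6. The windows are Mrps15 at chr4:126046678-126046977 on the plus strand, Mrpl34 at chr8:71464676-71464975 (plus), Mrps26 at chr2:130563507-130563806 (plus), Mrpl35 at chr6:71823735-71824034 (minus), Mrpl51 at chr6:125191950-125192249 (plus) and Mrps33 at chr6:39810887-39811186 (minus).
Mrps15: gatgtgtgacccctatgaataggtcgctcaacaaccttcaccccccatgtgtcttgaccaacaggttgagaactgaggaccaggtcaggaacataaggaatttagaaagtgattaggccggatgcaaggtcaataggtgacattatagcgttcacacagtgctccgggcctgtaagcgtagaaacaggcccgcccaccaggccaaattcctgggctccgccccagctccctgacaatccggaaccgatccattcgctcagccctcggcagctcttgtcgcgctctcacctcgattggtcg
Mrpl34: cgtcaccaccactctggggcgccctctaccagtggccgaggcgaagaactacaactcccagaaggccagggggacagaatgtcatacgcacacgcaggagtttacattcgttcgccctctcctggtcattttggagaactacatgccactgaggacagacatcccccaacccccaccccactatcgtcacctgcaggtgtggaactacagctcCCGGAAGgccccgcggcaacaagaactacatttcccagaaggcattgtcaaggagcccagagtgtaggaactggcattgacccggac
Mrps26: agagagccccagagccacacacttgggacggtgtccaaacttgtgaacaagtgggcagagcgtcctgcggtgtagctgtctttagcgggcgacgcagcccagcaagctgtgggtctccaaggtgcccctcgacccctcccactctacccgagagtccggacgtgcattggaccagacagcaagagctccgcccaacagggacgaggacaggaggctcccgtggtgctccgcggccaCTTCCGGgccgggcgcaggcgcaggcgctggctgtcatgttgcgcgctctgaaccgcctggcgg
Mrpl35: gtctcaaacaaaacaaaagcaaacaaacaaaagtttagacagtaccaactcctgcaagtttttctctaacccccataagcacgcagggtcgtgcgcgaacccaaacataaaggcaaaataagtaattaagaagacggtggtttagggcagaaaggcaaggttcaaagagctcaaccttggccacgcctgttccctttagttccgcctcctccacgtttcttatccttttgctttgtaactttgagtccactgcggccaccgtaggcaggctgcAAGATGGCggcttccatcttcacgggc
Mrpl51: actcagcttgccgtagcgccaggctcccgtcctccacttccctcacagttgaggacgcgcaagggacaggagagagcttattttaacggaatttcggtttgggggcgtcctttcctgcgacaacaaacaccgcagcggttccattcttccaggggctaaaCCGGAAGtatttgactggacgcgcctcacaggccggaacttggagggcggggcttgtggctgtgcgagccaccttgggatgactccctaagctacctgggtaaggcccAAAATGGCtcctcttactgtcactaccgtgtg
Mrps33: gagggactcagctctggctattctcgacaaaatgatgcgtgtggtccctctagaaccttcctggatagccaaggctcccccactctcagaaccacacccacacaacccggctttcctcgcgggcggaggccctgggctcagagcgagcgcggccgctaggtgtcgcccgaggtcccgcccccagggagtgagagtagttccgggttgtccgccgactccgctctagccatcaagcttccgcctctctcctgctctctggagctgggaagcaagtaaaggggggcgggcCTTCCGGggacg

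An ETS match began 37 bases before the start in Mrpl34, 90 before it in Mrpl51 and 14 before it in Mrps26, and 39 bases after it in Mrps33. YY1 matches began 24 bases after the start in Mrpl35 and 19 after it in Mrpl51. Mrps15 held none of the 3 motifs in this window. Over the 68 genes with an entry, 35.3% held CCGGAAG, 29.4% held GCCATNTT and 10.3% held GCGCATGCG, and 58.8% held at least 1 of them. Over 10184 genes tested with an entry these shares were 16.9%, 8.33%, 3.63% and 26.1%, and over all 27025 promoters listed they were 9.12%, 6.23%, 1.81% and 15.8%. Large subunit genes held at least 1 motif in 59.5% of cases and small subunit genes in 57.7%. Among genes that rose in HFpEF+TYA-018 against HFpEF+Veh, 3 of the 8 with an entry (37.5%) held at least 1 motif, and 0 of the 8 held GCGCATGCG. Among the 60 other genes with an entry the share was 61.7%. Of the YY1 matches in all 68 genes, 65.2% lay after the start of the transcript, beside 46.4% over all genes tested. A match of letters describes the window and does not show that a factor was bound.

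The genes differed widely in level. Over all 38 libraries their mean level in TPM (transcripts per 1000000, a unit that allows for transcript length) ran from 1.42 for Mrpl42 to 221 for Mrps21, with a median of 31.7 and quartiles of 15.2 and 58.5 TPM. The 10 most abundant genes made up 36.1% of the summed TPM. The highest was Mrps21, a small subunit protein with a bacterial counterpart, at chr3:95862634-95871519, with 168 to 287 TPM over the libraries. It was followed by Mrpl30, Mrpl23-ps1, Mrpl33 and Mrpl52, with mean levels of 149, 130, 117 and 117 TPM. Mrpl23-ps1 is annotated as a processed pseudogene of Mrpl23, and Mrpl23 itself was listed at 1.37 to 4.47 TPM. Reads of that pair may be divided between the copies by the quantification, so the level of either is uncertain.

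At the low end stood Mrps16, Mrpl57 and Mrpl19, with mean levels of 4.43, 4.32 and 3.68 TPM, followed by Mrpl23 and Mrpl42. Mrpl42 was listed at 0 to 7.45 TPM, reached 10 counts in 26 libraries and had a within-group SD of 2.06 on the log2 scale, and its fold changes had wide errors. The other 77 genes had at least 10 counts in every library. Small subunit genes had a median level of 34.5 TPM and large subunit genes one of 29.7 TPM. Of the 3 Mrps18 paralogs, which share an ancestral bacterial protein, Mrps18a had a mean level of 59.7 TPM, Mrps18b 34.5 TPM and Mrps18c 33.4 TPM.

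**Figure D1:**
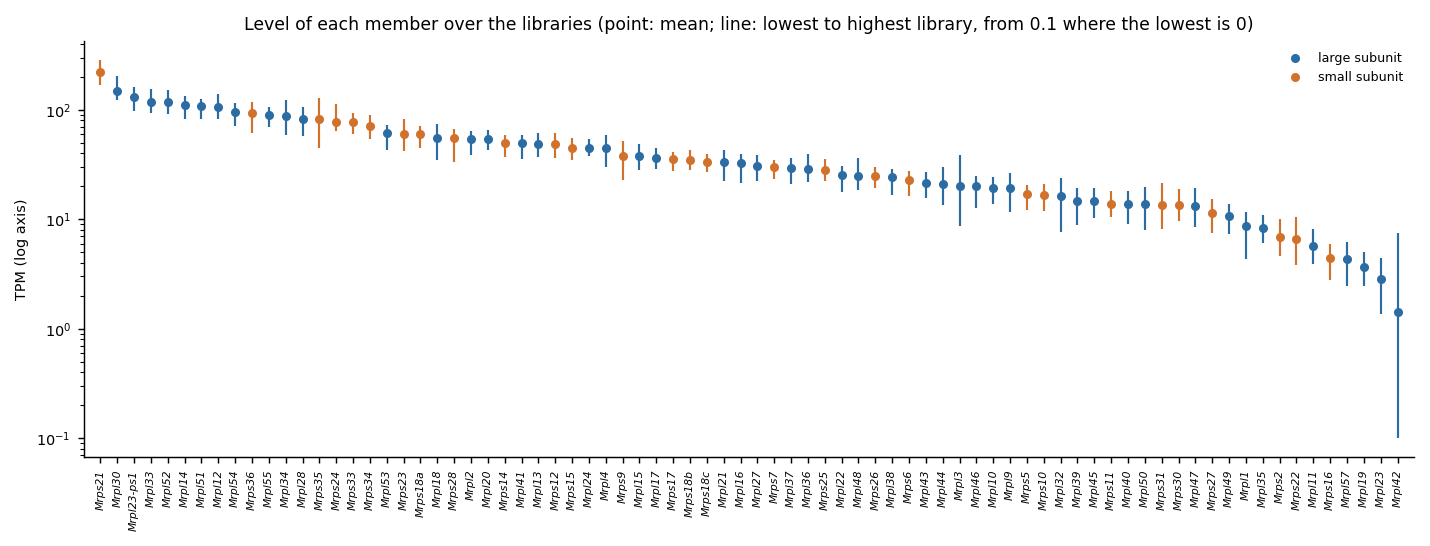
Level of each of the 78 genes in TPM (log axis), ordered from highest to lowest, with large and small subunit genes in separate colours. Points are means over the 38 libraries and lines run from the lowest to the highest library, starting at 0.1 where the lowest is 0. Mrps21 is the most abundant, with a mean of 221 TPM, and Mrpl42 the least, with a mean of 1.42 TPM and libraries at 0.

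To follow them by library, counts were scaled by the TMM method to CPM, put on the log2 scale and averaged over the 78 genes. This mean log2 CPM (± SD over libraries) was 5.02 ± 0.14 for the 8 non_failing mice and 4.91 ± 0.11 for the 8 given vehicle in the model. It was 5.12 ± 0.10 for the 11 mice given TYA-018 and 4.97 ± 0.19 for the 11 given empagliflozin. All 11 HFpEF+TYA-018 libraries lay above the mean of HFpEF+Veh, and 7 of them lay above every HFpEF+Veh library. The highest HFpEF+Veh library was V2523, at 5.09. Large subunit genes averaged 4.98, 4.88, 5.09 and 4.93 in the same order of groups, and small subunit genes 5.08, 4.97, 5.17 and 5.05. The small subunit mean exceeded the large subunit mean by 0.10, 0.10, 0.08 and 0.11, differences between groups that were smaller than their SD between libraries.

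**Figure D2:**
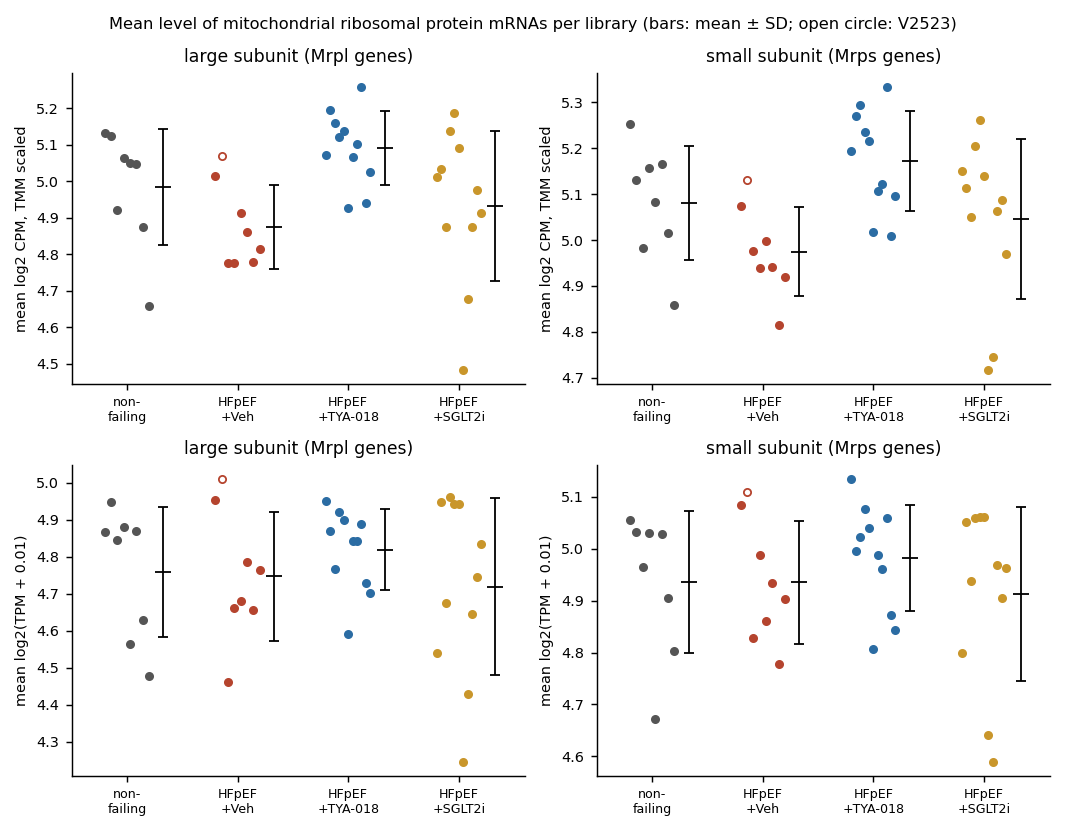
Mean of large (left) and small (right) subunit genes in each library, by group, as log2 CPM with TMM scaling (top) and as log2(TPM + 0.01) (bottom), with the group mean ± SD beside the points and V2523 as an open circle. In the top panels HFpEF+TYA-018 has the highest mean (5.09 and 5.17) and HFpEF+Veh the lowest (4.88 and 4.97), the groups overlap, and the lowest points of HFpEF+SGLT2i are V2571 and V2572. In the bottom panels the group means lie closer together.

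The scale of the unit mattered for these means. On log2(TPM + 0.01) the averages were 4.83, 4.82, 4.88 and 4.79, so that HFpEF+TYA-018 exceeded HFpEF+Veh by 0.06 instead of 0.21. Summed over the genes, the level was 3404 ± 287 TPM (SD) in non_failing, 3449 ± 263 TPM in HFpEF+Veh, 3581 ± 217 TPM in HFpEF+TYA-018 and 3359 ± 345 TPM in HFpEF+SGLT2i. TPM fixes the total of every library, of which mitochondrial transcripts hold a large share, whereas TMM sets the scale by the bulk of the genes. A limma fit on TPM that left out transcripts of mitochondrial DNA gave a median log2 fold change of 0.06 in HFpEF+TYA-018 against HFpEF+Veh. That fit changed the test and the filter too. How far the choice of scale accounts for the smaller difference in TPM was not tested.

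The first comparison asked how the model itself changed these genes. With HFpEF+Veh against non_failing, the small subunit gene Mrps15 fell and no other gene passed the test in either direction. Over the 78 genes the median log2 fold change was -0.10, against 0.01 over all genes tested, with 12 fold changes above 0 and 66 below. On log2(TPM + 1) with limma the median was -0.01, with 33 values above 0, and the summed TPM above was not lower in HFpEF+Veh. The median of all genes moved with the setting too. Relative to it, the median of the 78 genes was -0.11 to -0.07 over 10 other settings, limma included. The call was made at an adjusted p under 0.05 in edgeR's quasi-likelihood test with Benjamini-Hochberg adjustment over 13765 genes. Thus 1 of 78 genes (1.28%) fell, and 1.38% of all genes did. At an unadjusted p under 0.05, 14 of the 78 (17.9%) were lower, beside 7.41% of all genes, and 1 was higher.

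Mrps15, a small subunit protein with a bacterial counterpart, lies at chr4:126046925-126055532. Its level was 39.2, 48.4 and 60.3 CPM (lowest, median, highest library) in non_failing and 36.5, 40.3 and 45.6 CPM in HFpEF+Veh. All 8 HFpEF+Veh libraries were below the mean of non_failing, although the groups overlapped. The log2 fold change was -0.27 (SE 0.07, adjusted p = 0.0361 in edgeR), and it was -0.30 without V2523 (adjusted p = 0.0209). The call was lost in 8 of 38 fits that left out 1 library, those without V2501, V2502, V2504, V2508, V2527, V2529, V2530 or V2532, and the log2 fold change then reached -0.22 with an adjusted p of up to 0.0970. It passed in 5 of 10 other settings, where the adjusted p was 0.0125 to 0.165. Mrps35 and Mrpl15, the next by p, had log2 fold changes of -0.25 and -0.29 with adjusted p of 0.0739 and 0.0840 in edgeR. Without V2523 the median over the 78 genes was -0.12 and the count of calls stayed at 1 (1.28%, where 339 of 13801 genes fell).

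The markers of other cells moved between these groups too. Of 10 cardiomyocyte markers 4 fell in HFpEF+Veh and all 10 had fold changes below 0 (median -0.31), and their summed level was 44559 to 53424 CPM there and 46597 to 63105 CPM in non_failing. Of 8 fibroblast markers 3 rose, with sums of up to 1218 CPM (median 667) against 405 to 617 CPM (median 559). Of 4 tested brown adipocyte markers 2 rose and 2 had fold changes below 0, 1 of these at an unadjusted p under 0.05 in edgeR. Of 4 tested skeletal muscle markers 1 rose, and V2532 alone held the highest HFpEF+Veh level of each listed one except Ckm. Of 12 hepatocyte markers 0 passed and 10 had fold changes above 0, with V2523 included. The median of their sum was nevertheless lower in HFpEF+Veh, at 38.4 CPM, than in non_failing, at 122 CPM. The part of the marker differences in the result for the mitochondrial ribosomal protein genes was not tested. In tissue homogenates, fewer cells of a type and less RNA per cell cannot be told apart.

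The second comparison asked what the HDAC6 inhibitor changed in the model. With HFpEF+TYA-018 against HFpEF+Veh, 12 of the 78 genes rose and none fell, 9 of them in the large and 3 in the small subunit. Expressed as a share this was 15.4%, beside 0.835% of all genes that rose at the same threshold. The median log2 fold change was 0.21, a 1.16-fold difference, against -0.01 over all genes, and 77 of 78 values were above 0. The exception was Mrpl42, at -0.02 with an SE of 0.88. At an unadjusted p under 0.05, 50 of 78 genes (64.1%) were higher and 0 lower, beside 8.73% of all genes that were higher. Medians were 0.22 for the large and 0.20 for the small subunit, with 48 of 49 and 29 of 29 values above 0.

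**Figure D3:**
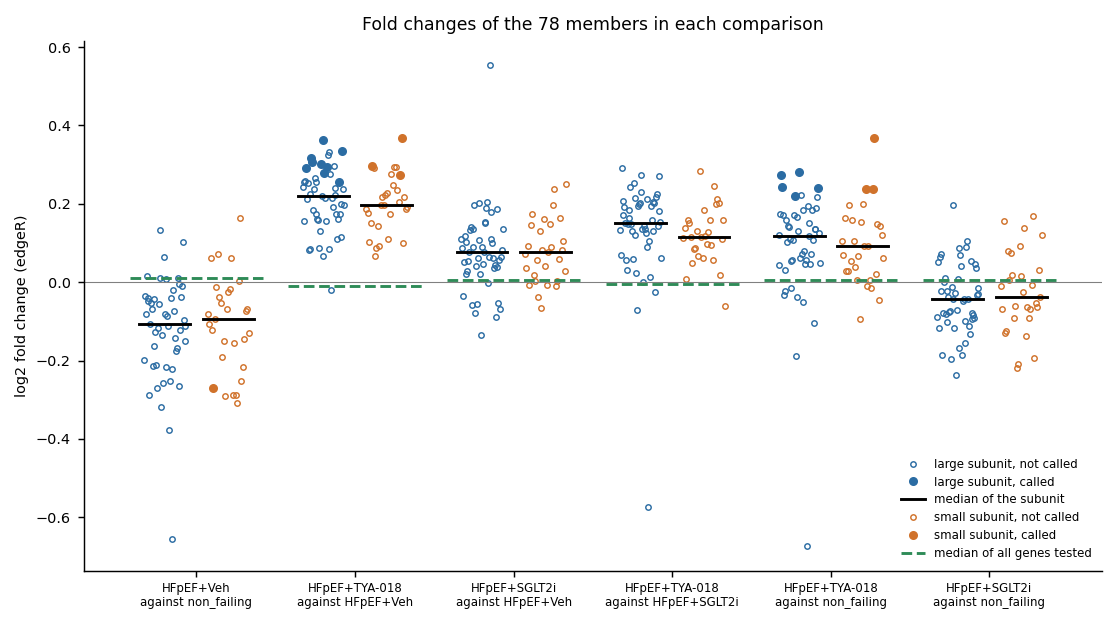
Log2 fold change of each of the 78 genes in the 6 comparisons, for large and small subunit genes, with the median of each subunit (solid line) and that of all genes tested (dashed line). Filled points passed the test at an adjusted p under 0.05. The points are shifted furthest above 0 in HFpEF+TYA-018 against HFpEF+Veh, where the median over both subunits is 0.21, and lie mostly below 0 in HFpEF+Veh against non_failing, where it is -0.10.

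Among large subunit genes, Mrpl55, a protein particular to mitochondrial ribosomes, had the smallest p. Its level was 56.0, 63.8 and 71.6 CPM in HFpEF+Veh (lowest, median, highest) and 66.9, 82.2 and 87.4 CPM in HFpEF+TYA-018. It lay above every HFpEF+Veh library in 10 of 11 treated libraries. The log2 fold change was 0.34 (SE 0.07, adjusted p = 0.00477 in edgeR, 1.26-fold), and it passed in all 38 fits without 1 library and in 7 of 10 other settings, with an adjusted p of up to 0.0773 there. Mrpl34, a protein with a bacterial counterpart, went from 30.8, 34.8 and 43.9 CPM to 36.7, 46.1 and 53.5 CPM (log2 fold change 0.36, SE 0.09, adjusted p = 0.0204). Mrpl30 went from 90.9, 106 and 121 CPM to 110, 127 and 178 CPM (log2 fold change 0.30, SE 0.08, adjusted p = 0.0286). For both genes 8 of 11 treated libraries lay above every vehicle library.

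Mrpl2, which lies at the peptidyl transferase centre, had 45.5, 55.1 and 67.3 CPM in HFpEF+Veh and 60.8, 68.5 and 75.3 CPM in HFpEF+TYA-018 (log2 fold change 0.31, SE 0.08, adjusted p = 0.0365 in edgeR). The remaining large subunit genes named by the rule had log2 fold changes of 0.29 for Mrpl13, 0.32 for Mrpl19, 0.28 for Mrpl35 and 0.26 for Mrpl51, with adjusted p of 0.0366, 0.0399, 0.0410 and 0.0414. Mrpl51 was the most abundant of these 4, with 110 to 134 CPM in HFpEF+Veh and 129 to 173 CPM in HFpEF+TYA-018, and 10 of 11 treated libraries above every vehicle library. It did not pass without V2523 (adjusted p = 0.0568 in edgeR), and it passed in 26 of 38 fits without 1 library. Mrpl35 overlapped most, with 4 of 11 treated libraries above every vehicle library. Mrpl38, with a log2 fold change of 0.29 and an adjusted p of 0.0463, was the ninth.

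Among small subunit genes, Mrps15, the gene that had fallen in HFpEF+Veh, rose to 40.4, 50.2 and 59.5 CPM in HFpEF+TYA-018 from 36.5, 40.3 and 45.6 CPM (log2 fold change 0.30, SE 0.07, adjusted p = 0.0164 in edgeR). These comparisons share the HFpEF+Veh libraries, so the fall and the rise are not independent of each other. Mrps15 passed in all 38 fits without 1 library and in 6 of 10 other settings, where the log2 fold change was 0.13 to 0.30 and the adjusted p reached 0.163, and 9 of 11 treated libraries lay above every vehicle library. Mrps36 (Kgd4) had 38.6, 45.2 and 49.4 CPM in HFpEF+Veh and 48.1, 57.4 and 67.0 CPM in HFpEF+TYA-018 (log2 fold change 0.37, SE 0.09, adjusted p = 0.0206). Mrps35, particular to mitochondria, had a log2 fold change of 0.27 (adjusted p = 0.0441). The groups overlapped for each of the 12 genes. The paralogs Mrps18a, Mrps18b and Mrps18c did not pass here or in any of the other comparisons.

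**Figure D4:**
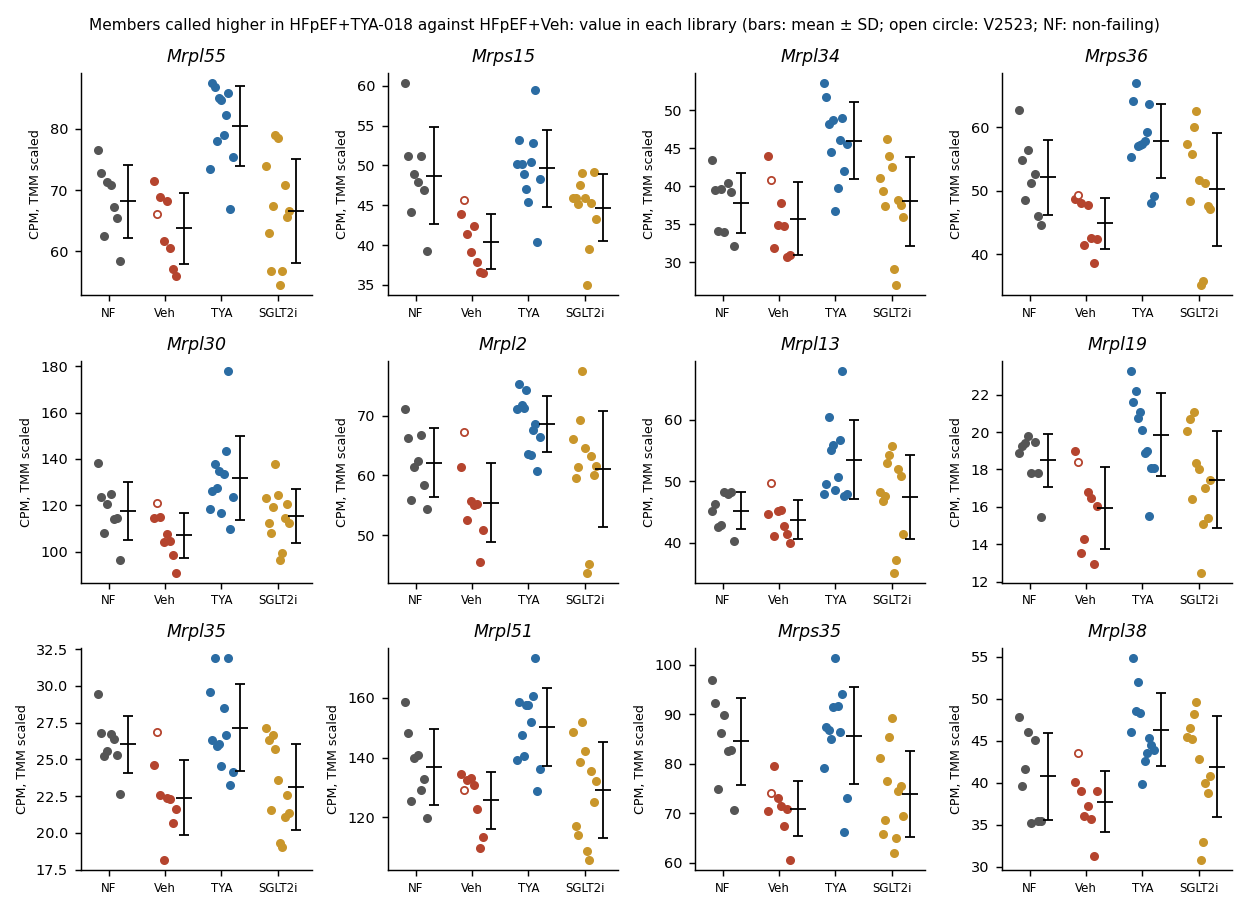
CPM (TMM scaled) in each library of the 4 groups for the 12 genes that rose in HFpEF+TYA-018 against HFpEF+Veh. Points are libraries, V2523 is an open circle, and the group mean ± SD stands beside the points. In each gene the HFpEF+TYA-018 mean is above the HFpEF+Veh mean and the groups overlap, as for Mrpl55, with medians of 82.2 and 63.8 CPM.

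Leaving out V2523 left 10 of the 12 calls and added none (12.8% of the 78 genes, beside 0.884% of all genes that rose). The median was then 0.25, and 57 genes (73.1%) had an unadjusted p under 0.05, beside 19.6% of all genes in that fit. Without V2571 and V2572, which belong to neither group but enter the shared estimate of the spread, 20 genes passed and the median stayed at 0.21. The count ranged from 2 (without V2530) to 16 (without V2570) over the 38 fits without 1 library, while the median stayed between 0.19 and 0.25. V2530 had the highest fibroblast sum of all libraries (1218 CPM) and, within HFpEF+Veh, the lowest cardiomyocyte sum (44559 CPM) and the lowest mean of the 78 genes (4.79), and its part beyond the fit without it was not tested. It also changed with other settings. With library size alone in place of TMM the median of all genes moved from -0.01 to -0.14 and that of the 78 genes from 0.21 to 0.08, so the distance between them stayed at 0.22. There 0 of the 78 genes passed, beside 0.182% of all genes that rose. The fit with limma on log2(TPM + 1) changes the unit, the test and the filter together and leaves out transcripts of mitochondrial DNA. In it 0 of the 78 genes passed, beside 0.0216% of all genes that rose, and the median was 0.06. Over the 10 other settings the median of the 78 genes exceeded that of all genes by 0.15 to 0.23. All these settings kept the median above 0. Fold changes of all genes fell with transcript length in this comparison (Spearman's rho -0.28 across 13765 genes, which share the same libraries and are not independent), and the 78 genes were short, with a median effective length of 901 bases against 2044. Within the 78 genes the trend ran the other way (rho 0.16). With a length offset 4 of the 78 genes (5.13%) passed, beside 0.494% of all genes that rose in that fit, and the median was 0.19.

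**Figure D5:**
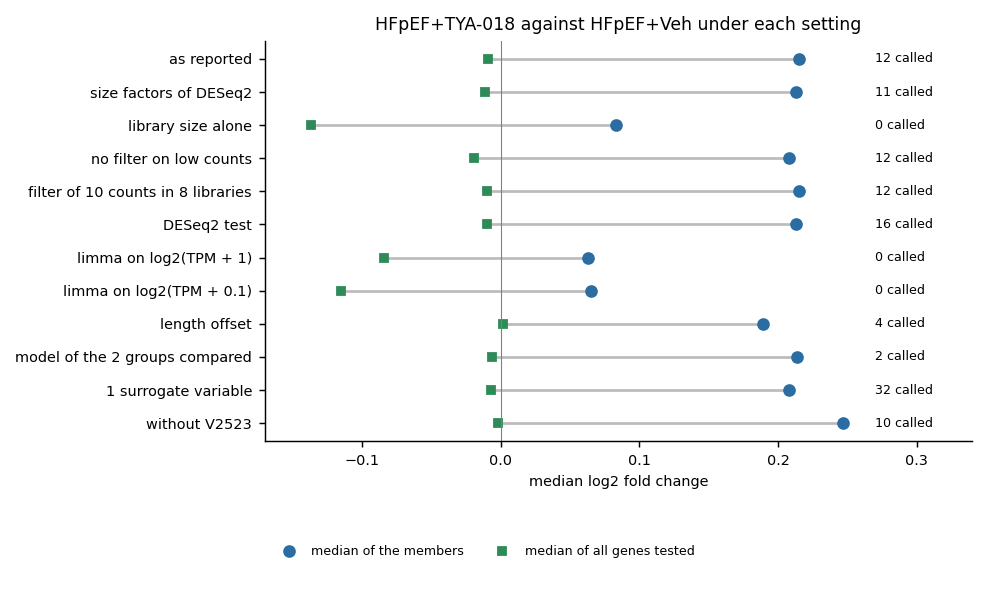
Median log2 fold change in HFpEF+TYA-018 against HFpEF+Veh of the 78 genes (circles) and of all genes tested (squares), as reported, under 10 other settings and without V2523, with the number of the 78 genes that passed at the right. Both medians drop together when library size alone sets the scale, to 0.08 and -0.14, and the number that passed runs from 0 to 32.

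Beside this result, 9 of 10 cardiomyocyte markers had fold changes above 0 (median 0.17, 0 passed), with summed levels of 46197 to 56778 CPM in HFpEF+TYA-018. All 8 fibroblast markers had fold changes below 0 (median -0.23, 0 passed), with sums of 451 to 785 CPM. All 8 endothelial markers were below 0 as well (median -0.13, 0 passed), with sums of 731 to 1061 CPM against 956 to 1371 CPM in HFpEF+Veh. Of 4 tested skeletal muscle markers 1 fell (median -1.49), and V2532 alone held the highest HFpEF+Veh level of each listed one except Ckm. The part of these differences in the result was not tested. All 12 hepatocyte markers fell under each drug against vehicle, with sums of at most 36.9 CPM in HFpEF+TYA-018, and the fit without V2523 above gives the result without the library that held most of them.

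The next comparison asked the same of empagliflozin. With HFpEF+SGLT2i against HFpEF+Veh, 0 of 78 genes passed in edgeR, beside 0.85% of all genes in either direction. At an unadjusted p under 0.05 there were 2 genes (2.56%), beside 10% of all genes, and DESeq2 also called 0. Limma called 0 of the 78 as well, but 0 of all 13909 genes passed there. The median log2 fold change was 0.08 against 0.01 over all genes, with 64 values above 0. With library size alone the median was -0.01 for the 78 genes and -0.07 for all genes, so the 78 genes stayed above the rest by 0.06. With TMM scaling it ran from 0.05 (without V2565) to 0.11 (without V2571) when 1 library was left out. Mrpl37, Mrps15 and Mrps30 had the smallest p. Mrpl37 had 42.2, 47.2 and 50.6 CPM in HFpEF+Veh and 39.7, 52.4 and 60.6 CPM in HFpEF+SGLT2i (log2 fold change 0.15, 95% interval 0.02 to 0.29, adjusted p = 0.424 in edgeR). Mrps15 had 34.9, 45.9 and 49.2 CPM in HFpEF+SGLT2i (log2 fold change 0.14, 95% interval 0.00 to 0.29, adjusted p = 0.479). For Mrps30 the value was 0.20 (adjusted p = 0.504).

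The SD of the mean log2 CPM was widest in HFpEF+SGLT2i, at 0.19, and V2571 and V2572 were its lowest libraries. Without both, a choice made after seeing the data and partly for their low values of these genes, the median was 0.14, 68 values were above 0 and Mrpl37 rose (log2 fold change 0.22, adjusted p = 0.0404 in edgeR). In that fit 34 of the 78 genes (43.6%) had an unadjusted p under 0.05, beside 18.6% of all genes. Without V2523 the median was 0.10 and 0 genes passed, with 7 (8.97%) at an unadjusted p under 0.05, beside 10.5% of all genes in that fit. Of the 10 cardiomyocyte markers 9 had fold changes above 0 (median 0.07, 0 passed), 7 of 8 fibroblast markers had fold changes below 0 (median -0.22, 0 passed), and 2 of 4 tested skeletal muscle markers fell. The listed skeletal muscle markers other than Ckm each stood highest within HFpEF+Veh in V2532. The summed cardiomyocyte level of 36537 CPM in V2571 was the lowest of all libraries. V2571 also had the highest endothelial sum, 1697 CPM, and V2572 the highest share of mitochondrial transcripts, 39.5%. Their part in the result beyond the values without them was not tested.

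The 2 drugs were then set against each other. With HFpEF+TYA-018 against HFpEF+SGLT2i, 0 of 78 genes passed in edgeR, and 0% of all 13765 genes did. At an unadjusted p under 0.05, 33 of 78 genes (42.3%) were higher and 0 lower, beside 6.63% of all genes that were higher. DESeq2 called 6 of the 78 (7.69%, beside 0.799% of all genes that rose). With limma 0 of all 13909 genes passed, so its 0 for the 78 genes says nothing particular to them. The median log2 fold change was 0.14 against -0.01 over all genes, with 74 values above 0. Mrpl55 had 54.4, 66.7 and 79.1 CPM in HFpEF+SGLT2i against 66.9, 82.2 and 87.4 CPM in HFpEF+TYA-018 (log2 fold change 0.27, 95% interval 0.14 to 0.40, adjusted p = 0.0975 in edgeR). For Mrps33, a small subunit protein without a bacterial counterpart, the value was 0.24 (adjusted p = 0.103), and for Mrpl20, a large subunit protein, 0.24 (adjusted p = 0.106). All 11 HFpEF+TYA-018 libraries lay above the HFpEF+SGLT2i mean in each of these 3 genes. Without V2571 and V2572 the median was 0.07, 60 values were above 0 and 0 genes passed, with 19 (24.4%) at an unadjusted p under 0.05, beside 11.8% of all genes in that fit.

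Values of other lists stood beside these. Of the 81 tested genes of the cytosolic ribosome, 36 (44.4%) were higher at an unadjusted p under 0.05, with a median of 0.19, and of 35 complex I subunits 34.3% were, with a median of 0.15. Fold changes of all genes fell with transcript length here as well (rho -0.39 across 13765 genes, and -0.31 within the 78). Of 8 endothelial markers 7 had fold changes below 0 (median -0.12, 0 passed), and of 10 cardiomyocyte markers 9 had fold changes above 0 (median 0.08, 0 passed). The part of length and of these markers in the result was not tested.

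Against the healthy mice, HFpEF+TYA-018 had 8 genes higher and 0 lower (10.3%, beside 4% of all genes that rose), 5 in the large and 3 in the small subunit. The median log2 fold change was 0.11 against 0.00 over all genes, with 66 values above 0. Mrps34, a small subunit protein particular to mitochondria, had the smallest p. It measured 49.8, 58.3 and 66.1 CPM in non_failing, 53.9, 64.0 and 73.4 CPM in HFpEF+Veh and 65.0, 75.1 and 83.7 CPM in HFpEF+TYA-018, and 10 of 11 treated libraries lay above every non_failing library. Its log2 fold change was 0.37 (SE 0.07, adjusted p = 0.000691 in edgeR), and it passed under each of the 10 other settings and all 38 fits without 1 library. Mrps34 had a log2 fold change of 0.16 in HFpEF+Veh against non_failing (adjusted p = 0.270), whereas the value of Mrps15 there was below 0.

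Mrps26, also particular to mitochondria, had 24.98, 28.1 and 31.7 CPM in non_failing and 29.0, 32.6 and 38.4 CPM in HFpEF+TYA-018 (log2 fold change 0.24, SE 0.06, adjusted p = 0.0126 in edgeR). Mrpl12, the stalk protein that contacts translation factors, had 125, 155 and 160 CPM in non_failing and 142, 174 and 214 CPM in HFpEF+TYA-018 (log2 fold change 0.27, SE 0.08, adjusted p = 0.0213). For Mrpl12, 10 of 11 treated libraries lay above every non_failing library. Mrpl55, Mrps33, Mrpl34, Mrpl13 and Mrpl28 had log2 fold changes of 0.24, 0.24, 0.28, 0.24 and 0.22, with adjusted p of 0.0272, 0.0361, 0.0404, 0.0433 and 0.0476. Mrpl55, Mrpl34 and Mrpl13 had also risen against HFpEF+Veh, a comparison that shares the HFpEF+TYA-018 libraries. The count ranged from 2 (without V2503, V2510 or V2555) to 9 (without V2501), and it was 1 with library size alone, where Mrps34 remained. Beside this, 1 of 10 cardiomyocyte markers and 11 of 12 hepatocyte markers fell, whereas 1 of 8 fibroblast markers and 2 of 4 tested brown adipocyte markers, Cidea and Dio2, rose. The 6 listed brown adipocyte markers summed to 458 to 739 CPM in HFpEF+TYA-018 and 529 to 765 CPM in non_failing, and the defining marker Ucp1 was at 0 in 8 of 11 and 6 of 8 libraries. The part of these markers was not tested.

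HFpEF+SGLT2i against non_failing gave 0 of 78 genes in edgeR, beside 6.45% of all genes in either direction. At an unadjusted p under 0.05 there were 7 genes (8.97%), 3 higher and 4 lower, beside 19.6% of all genes, and DESeq2 and limma called 0. The median was -0.04 against 0.00 over all genes, with 26 values above 0, and it ran from -0.08 (without V2510) to -0.01 (without V2571) when 1 library was left out. Mrpl28, a large subunit protein with a bacterial counterpart, had 82.2, 98.9 and 107 CPM in non_failing and 91.0, 111 and 133 CPM in HFpEF+SGLT2i (log2 fold change 0.20, 95% interval 0.05 to 0.34, adjusted p = 0.0912 in edgeR). Mrps35 had a log2 fold change of -0.19 (adjusted p = 0.116). The value for Mrps21, the most abundant of the genes, was -0.22 (adjusted p = 0.162), and all 11 libraries lay below the non_failing mean. Without V2571 and V2572 the median was 0.03, with 47 values above 0, and Mrpl28 rose (log2 fold change 0.23, adjusted p = 0.0397). Of 10 cardiomyocyte markers 4 fell in this comparison, 10 of 12 hepatocyte markers fell, 1 of 8 fibroblast markers rose and 1 fell, and 1 of 4 brown adipocyte markers rose. Their part was not tested.

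Beyond the group differences, the genes varied together among mice of 1 group. After subtraction of group means, the Pearson correlation between 2 of the 78 genes across the 38 libraries had a median of 0.54 over 3003 pairs, and 92.0% of pairs were above 0. The median was 0.56 within the large subunit, 0.52 within the small subunit and 0.54 between the subunits, beside 0.00 over all pairs of genes tested, 0.64 within complex I subunits and 0.79 within the cytosolic ribosome. These values share libraries and scaling and are given as a description. With subunits of complex I of the respiratory chain the median was 0.48, with cardiomyocyte markers 0.49, with fibroblast markers -0.12 and with the proteins of the cytosolic ribosome 0.11. Mrpl53, Mrpl2 and Mrpl22 followed the mean of the others most closely, with correlations of 0.92, 0.90 and 0.89. Mrpl23-ps1, Mrpl52 and Mrpl42 followed it least, with 0.13, 0.14 and 0.14. The 78 genes varied little within groups, with a median SD of 0.18 on the log2 scale against 0.27 over all genes, and Mrps18b had the smallest, 0.10. This was not particular to them, since the median SD was 0.20 for complex I subunits. For genes of the cytosolic ribosome it was 0.24.

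Among other genes of mitochondrial translation, few passed the test in any comparison. The lists were translation factors, assembly factors, tRNA synthetases, transcription genes and regulators. Where a list held a single call against non_failing, that was 4.17% to 9.09% of it. Transcription genes under TYA-018, and translation factors and regulators under SGLT2i, held 0. Of all genes 7.39% (TYA-018) and 6.45% (SGLT2i) were called in either direction, so these calls do not set the lists apart from all genes. Of 24 tested factors of ribosome assembly, Mrm1, which methylates the large ribosomal RNA, rose in HFpEF+TYA-018 against HFpEF+Veh (log2 fold change 0.44, adjusted p = 0.0205 in edgeR), and all 24 values were above 0 with a median of 0.20. Ddx28, an RNA helicase of large subunit assembly, rose against non_failing in HFpEF+TYA-018 (0.36, adjusted p = 0.0140) and in HFpEF+SGLT2i (0.31, adjusted p = 0.0388). Of 19 translation factors 0 passed against HFpEF+Veh under TYA-018, with a median of 0.17, and Gatb, a subunit of the amidotransferase that makes glutaminyl-tRNA, rose against non_failing (0.24, adjusted p = 0.0206). Of 17 mitochondrial tRNA synthetases, the leucine enzyme Lars2 fell in HFpEF+TYA-018 against non_failing (-1.32, adjusted p = 0.0258) and the valine enzyme Vars2 rose in HFpEF+SGLT2i against non_failing (0.23, adjusted p = 0.0399). In HFpEF+SGLT2i Polg, the mitochondrial DNA polymerase, rose against non_failing (0.21, adjusted p = 0.0434), as 1 of 12 genes of mitochondrial transcription and replication. Gabpa, a subunit of the ETS factor GABP and 1 of 11 listed regulators, fell in HFpEF+TYA-018 against non_failing (-0.29, adjusted p = 0.0132).

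Complex I holds many of the proteins that this ribosome makes, beside subunits encoded in the nucleus. Of 35 nuclear-encoded subunits tested, Ndufs7, Ndufa12 and Ndufa8 rose in HFpEF+TYA-018 against HFpEF+Veh, with log2 fold changes of 0.29, 0.27 and 0.26 and adjusted p of 0.0274, 0.0404 and 0.0451 in edgeR (8.57%, beside 0.835% of all genes that rose), and the median was 0.19. Ndufa12, an accessory subunit, had fallen in HFpEF+Veh against non_failing (-0.33, adjusted p = 0.0118) and was also lower in HFpEF+SGLT2i against non_failing (-0.28, adjusted p = 0.0159). Ndufa3 rose in HFpEF+TYA-018 against non_failing (0.40, adjusted p = 0.0320). In each comparison with non_failing the single call was 2.86% of the list, beside 1.38% of all genes lower in HFpEF+Veh, 6.45% called either way in HFpEF+SGLT2i and 4% higher in HFpEF+TYA-018. The 81 tested genes of the cytosolic ribosome had medians of 0.07 in HFpEF+TYA-018 and -0.12 in HFpEF+SGLT2i against HFpEF+Veh, where Rps2 rose under TYA-018 (0.26, adjusted p = 0.0415). In HFpEF+TYA-018 against non_failing their median was 0.16, with 80 of 81 values above 0, and Rps2 (0.37, adjusted p = 0.000633) and Rps19bp1 (0.28, adjusted p = 0.0320), whose product binds a ribosomal protein, rose (2.47% of the list, beside 4% of all genes). Differences between these lists and the mitochondrial ribosomal protein genes were not tested.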

How the data were processed

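RNA was sequenced from 38 left ventricles. The authors trimmed reads with fastp, quantified GENCODE transcripts of GRCm38.p6 with salmon and summed them to genes with tximport, and the submitters' processing notes list Salmon 1.6.0 and, at odds with mouse, hg38. The deposited expected counts are estimated reads per gene. The deposited TPM values were scaled by the authors per 1000000 transcripts. A deposited table of effective lengths, in bases per gene and library, served the length offset. Unmapped columns numbered 0.

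Expected counts were rounded, filtered with filterByExpr, scaled with TMM and tested with edgeR 4.0.16 (quasi-likelihood, 1 model of 4 groups, 6 comparisons, two-sided, Benjamini-Hochberg over 13765 genes). CPM values by gene use the TMM scale, marker sums total counts. Standard errors came from each fold change and its F statistic. Alternatives were the size factors and test of DESeq2 1.42.0, library size alone, other filters, limma 3.58.1 on log2(TPM + 1) and log2(TPM + 0.1), a length offset, models of the 2 groups compared, 1 surrogate variable (sva 3.50.0) and each library left out. On simulated counts for HFpEF+Veh against non_failing (13765 genes) the test called 48.5% of genes changed by 0.5 and 80.3% of genes changed by 1 on the log2 scale.

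Genes named are, for each comparison, up to 10 called in a direction by p, or 3 by p where none was called, the 5 highest and 5 lowest levels, the Mrps18 paralogs and up to 3 called genes of other lists. Mrps35, Mrpl38, Mrpl15 and the genes ranked by correlation were added after their values were seen. Members and lists were chosen with earlier results of these data known. Coordinates are from the GENCODE annotation of GRCm38, promoters from RefSeq (GRCm38.p6, first start per symbol). Depth was 21.5 to 59.3 in units of 1000000 counts. Libraries of a group came from separate mice.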

Additional observations from a re-analysis of the deposited data

Results flagged for a closer look

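In groups of 8 libraries, 4 of 64 sets of values had 1 library far from the rest, judged on log2(CPM + 1) by the gap to the nearest library over the range of the group, and chance alone gives about 1 in 20. In the non_failing library V2510, Mrpl19 was at 15.4 CPM, with the nearest library at 17.8, Mrps18c at 15.1 CPM, with the nearest at 16.9, and Mrpl23 at 0.868 CPM, with the nearest at 1.86. In the HFpEF+Veh library V2532, Mrpl23-ps1 was at 41.0 CPM, with the nearest at 59.4.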

How the results depend on the processing

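Over 10 other settings the median of the 78 genes was -0.11 to -0.01 in HFpEF+Veh against non_failing, 0.06 to 0.22 in HFpEF+TYA-018 against HFpEF+Veh, -0.01 to 0.09 in HFpEF+SGLT2i against HFpEF+Veh, 0.07 to 0.17 in HFpEF+TYA-018 against HFpEF+SGLT2i, and 0.05 to 0.13 and -0.05 to -0.01 for TYA-018 and SGLT2i against non_failing. It changed sign in HFpEF+SGLT2i against HFpEF+Veh with library size alone, which moves all genes (small subunit genes also with limma), and in HFpEF+SGLT2i against non_failing, to 0.03, without V2571 and V2572. Relative to all genes the median kept its sign in the 10 settings, at 0.04 to 0.08 in HFpEF+SGLT2i against HFpEF+Veh. Counts of genes called varied more, and the cause was not tested. HFpEF+Veh against non_failing gave 0 with library size alone and 0 without a filter. It gave 2 with DESeq2, both lower (2.56% of the 78, where 280 of all 13765 genes fell). A surrogate variable gave 3, all lower (3.85%, where 333 of 13765 genes fell). With limma the single call was Mrps34 in the other direction (0.26, adjusted p = 0.0383). HFpEF+TYA-018 against HFpEF+Veh gave 0 with library size alone (beside 0.182% of all genes that rose) and 0 with limma at either pseudocount (beside 0.0216%). It gave 4 with a length offset (5.13%, beside 0.494%), 2 in a model of the 2 groups (2.56%, beside 0.324%) and 32 with a surrogate variable (41%, beside 4.74%). HFpEF+TYA-018 against HFpEF+SGLT2i gave 6 with DESeq2 (7.69%, beside 0.799%) and 15 with a surrogate variable (19.2%, beside 2.33%). HFpEF+TYA-018 against non_failing gave 1 with library size alone (1.28%, beside 1.87%), 5 without a filter (6.41%, beside 2.05%), 3 with limma at either pseudocount (3.9%, beside 1.87% at 1 and 1.99% at 0.1), 4 with a length offset (5.13%, beside 3.38%) and 18 with a surrogate variable (23.1%, beside 8.02%). HFpEF+SGLT2i against non_failing gave 2 with a surrogate variable, both lower (2.56%, where 808 of 13765 genes fell). It gave 1, higher, without V2571 and V2572 (1.28%, beside 3.32% of all genes that rose). HFpEF+SGLT2i against HFpEF+Veh gave 1, higher, without them (1.28%, beside 0.846% that rose). Without them HFpEF+TYA-018 against HFpEF+Veh gave 20 (25.6%, beside 1.75% that rose). HFpEF+Veh against non_failing then gave 2, both lower (2.56%, where 235 of 13717 genes fell). Leaving out 1 library gave 0 to 3, 2 to 16, 0 to 0, 0 to 1, 2 to 9 and 0 to 1 calls, in the order HFpEF+Veh against non_failing, HFpEF+TYA-018 and HFpEF+SGLT2i against HFpEF+Veh, HFpEF+TYA-018 against HFpEF+SGLT2i, and both drugs against non_failing. In the same order the median ran from -0.14 to -0.07, 0.19 to 0.25, 0.05 to 0.11, 0.11 to 0.17, 0.08 to 0.14 and -0.08 to -0.01. A count of genes called was taken as kept if it stayed within 1.5 times or, where it was 0 as reported, stayed at 0. By this rule 238 cases were kept, leave-outs included, and 56 moved. The 238 include the cases that stayed at 0 in HFpEF+SGLT2i against HFpEF+Veh, HFpEF+TYA-018 against HFpEF+SGLT2i and HFpEF+SGLT2i against non_failing. Of values for single named genes, 1155 kept their side of the threshold, 205 lost it, 12 gained it and 0 changed sign. Of medians, 8 of 882 changed sign. No paired analysis was possible because the groups share no mouse numbers. Mrpl42 and Mrpl23 had the fewest counts.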
